A study of Mus musculus with 3 samples.

Results

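The genes described here are 43 components of DNA replication and S phase, followed across 3 columns of microarray values from CT26 mouse colon carcinoma cells. They were taken by name from a list of licensing factors, helicase subunits, polymerases, clamp and clamp-loader subunits, cyclin E and its kinase, and enzymes of nucleotide supply. A gene's level is the mean of the probe sets annotated to it alone. All 43 had such a probe set, among 19938 genes in all, and 37 of them were among the 9969 genes past the expression filter, a mean log2 level over the 3 columns of at least 7.13.

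Chromosome replication starts in G1, when the origin recognition complex, Cdc6 and Cdt1 load the ring-shaped MCM helicase onto DNA. In S phase, cyclin E with CDK2 and the kinase Cdc7 allow Cdc45 and the GINS complex to join MCM and open the duplex, after which polymerase alpha with its primase starts each strand and polymerases epsilon and delta extend it on the PCNA clamp. Most of these genes are transcribed periodically under E2F factors, so their mRNA is widely used as a readout of proliferating cells.

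CT26 is a colon carcinoma line of the mouse that grows in culture, here in RPMI1640 with 10% fetal bovine serum, penicillin and streptomycin. Every group had been transfected with a PIG vector, selected with puromycin, sorted for GFP and cloned by serial dilution, so the control cells carried vector, drug selection and cloning as well. The control group, labelled miR-Ctrl (Ctrl), received the vector for a control microRNA. The groups miR-17~92Med (Med) and miR-17~92Hi (Hi) received the wild-type miR-17~92 vector and are labelled as medium and high expressors. The design text gives 3 subclones a group, but each group has 1 value column, and whether a column is 1 clone, a pool or a mean is not stated in the labels. No difference below therefore has a measured error or a p-value, and the words higher and lower refer to the columns as deposited. All values are log2 expression levels of the array, or differences between them.

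The cluster that sets the groups apart encodes 6 microRNAs, processed from the host transcript Mir17hg of mouse chromosome 14 (chr14:115043684-115044496 from the first base of miR-17-5p to the last of miR-92a-3p). They are shown because they are the agent tested, in RefSeq's sequences (GRCm38.p6, plus strand), written 5′ to 3′ with the seed, bases 2 to 8, in capitals.
miR-17-5p: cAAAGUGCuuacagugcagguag
miR-20a-5p: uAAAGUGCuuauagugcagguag
miR-18a-5p: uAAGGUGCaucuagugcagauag
miR-19a-3p: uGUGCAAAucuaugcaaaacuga
miR-19b-3p: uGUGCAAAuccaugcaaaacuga
miR-92a-3p: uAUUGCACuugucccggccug
miR-17-5p and miR-20a-5p share the seed AAAGUGC, and miR-19a-3p and miR-19b-3p share GUGCAAA. miR-18a-5p (AAGGUGC) and miR-92a-3p (AUUGCAC) each have a seed of their own in the cluster.

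The Ctrl column stood apart from the other 2. Across the 35556 probe sets, Pearson's r was 0.992 between Med and Hi, 0.787 between Med and Ctrl and 0.795 between Hi and Ctrl. The mitochondrially encoded COX2 had levels of 6.00 (Ctrl), 13.40 (Med) and 13.31 (Hi). The array did not check the labels, since the cluster's host transcript Mir17hg was at 5.98 in Ctrl and 6.02 in both other columns. Olfactory and vomeronasal receptor genes (1196), taken as a gauge of background, had a 95th percentile of 6.87 in Ctrl, 6.18 in Med and 6.20 in Hi. Of 11 epithelial markers, 4 passed the filter, and they did not move together. Krt18 had levels of 7.97 (Ctrl), 11.41 (Med) and 12.28 (Hi), Krt8 8.92, 7.28 and 7.32, Cdx1 8.95, 7.24 and 7.45, and Krt19 7.50, 7.50 and 7.87, whereas Epcam, Vil1, Cdx2, Krt20 and Lgr5 lay within the receptor range in every column. The 11 epithelial levels summed to 79.9 in Ctrl, 74.2 in Med and 75.8 in Hi. Of markers of other cell types, 5 of 9 for fibroblasts, 1 of 6 for immune cells and 0 of 4 for endothelium passed the filter. The immune marker that passed, Cd68, was at 7.18, 9.12 and 7.67, further apart between Hi and Med (-1.45) than any member, and the fibroblast marker Pdgfra was at 7.26, 9.79 and 10.27. Col1a1, Col1a2, Col3a1 and Thy1 were each lower in Med and Hi than in Ctrl as deposited, and Dcn, Lum, Ptprc, Csf1r, Kdr and Tek lay within the receptor range in every column. The sums were 63.4, 58.2 and 59.0 for fibroblasts, 39.0, 37.2 and 35.9 for immune cells and 27.1, 23.8 and 23.5 for endothelium. Their part in the differences below was not tested.

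All 43 replication genes exceeded the 95th percentile of the receptor genes in Med and in Hi, and 36 did so in Ctrl. Of all 19938 genes, 60.6% exceeded it in Ctrl and 63.9% in each of the other columns. The median member had levels of 7.62 (Ctrl), 8.88 (Med) and 8.70 (Hi), where the median of all genes was 7.24, 6.94 and 6.96. Gmnn and Ccne2 lay below the median of all genes in both Med and Hi, and Cdc7, Gins1 and Gins3 did so in Hi but not in Med.

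**Figure D1:**
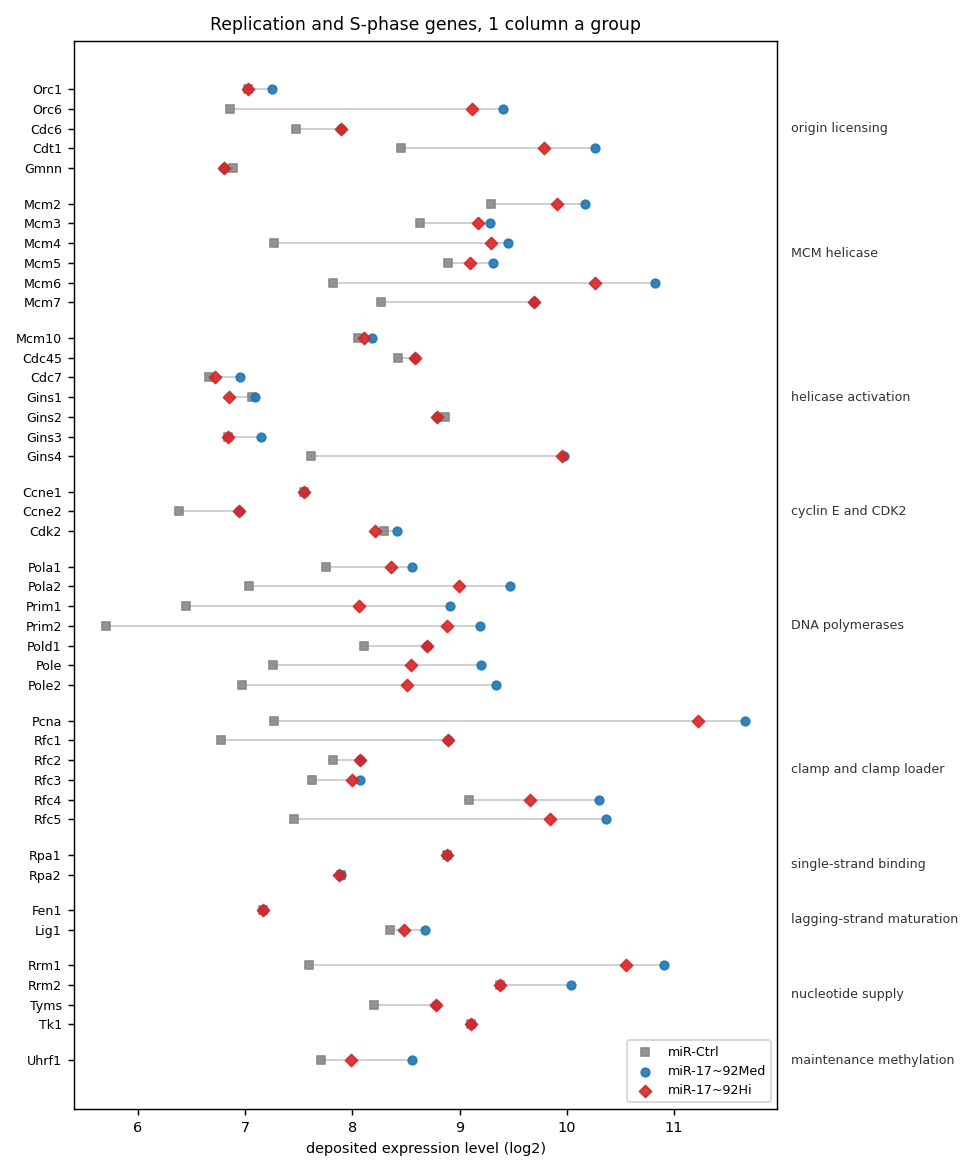
Levels of the 43 replication and S-phase genes (log2, horizontal axis) in miR-Ctrl (grey squares), miR-17~92Med (blue circles) and miR-17~92Hi (red diamonds), ordered by role, with 1 column a group and no error to show; a line joins the lowest and highest column of a gene. Hi markers lie at or to the left of Med markers in every row as deposited, and the widest spans belong to Pcna, Prim2, Rrm1, Mcm6 and Rfc5. With quantile normalization some identical genes, Gins4 and Rpa2 would have Hi to the right of Med, by at most 0.04.

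The comparison of Hi with Med sets the column labelled high beside the one labelled medium, and the Ctrl column is no part of the difference. With 1 column a group, the level of the cluster cannot be told apart from clone or array, here or against Ctrl. Genes for primase, polymerase epsilon, ribonucleotide reductase and a clamp-loader subunit were lower in Hi in every scaling, with Prim1 (-0.85), Pole2 (-0.84), Pole (-0.66), Rrm2 (-0.66) and Rfc4 (-0.65) furthest apart. Of the 37 members past the filter, 25 were lower in Hi, 12 were identical and none was higher as deposited, whereas quantile normalization put 24 lower and 13 higher, the latter by at most 0.04. Over all 9969 genes past the filter, 31.3% were lower in Hi and 22.8% higher as deposited, and 31.9% and 68.0% with quantile normalization. At least 0.25 lower (1.19-fold) were 15 members of 37 (40.5%), where the share over all genes was 11.9%, and no member was higher by that much, where the share was 5.64%. No member was 2-fold lower or higher, against 0.863% and 0.682% of all genes. The median difference of the members was -0.19 and that of all genes 0.00. With all 43 members, 29 were lower, 14 identical and none higher as deposited, beside 23.6% lower, 51.1% identical and 25.3% higher of all 19938 genes. In bulk RNA, fewer cells in S phase and less mRNA per cell cannot be told apart.

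Rescaling turned the sign of small differences and left the larger ones on their side. The 13 members higher with quantile normalization were 11 of the identical ones, Gins4 and Rpa2. With columns centred on their medians all 37 members were lower, beside 78.3% of all genes lower and 21.7% higher. After a loess fit of the difference on level, 29 members were lower and 8 higher, beside 48.2% and 51.8% of all genes. Members lower by at least 0.25 numbered 12 with quantile normalization, beside 9.18% of all genes. They numbered 15 with centring and with loess, beside 12.3% and 11.7% of all genes. Of the 16 members at least 0.25 lower with no filter, 13 stayed so in every scaling tried, and Orc6, Mcm2 and Prim2 did not. How many of all genes at least 0.25 lower stayed so was not counted.

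**Figure D2:**
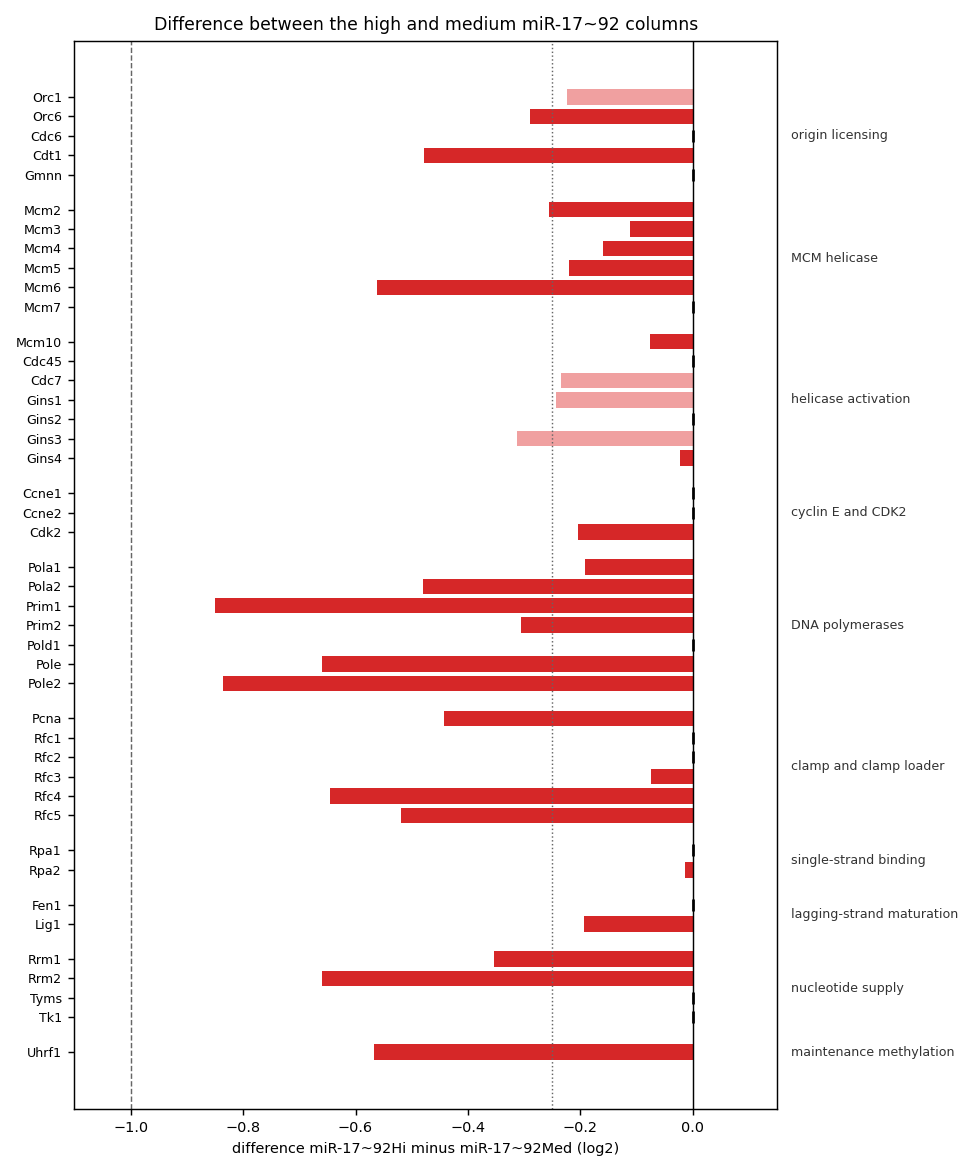
Difference in log2 level between miR-17~92Hi and miR-17~92Med for each of the 43 genes, ordered by role; dark bars are the 37 genes past the expression filter, pale bars the other genes, and black ticks at 0 mark genes with identical values. Dotted and dashed lines mark differences of -0.25 and -1 (2-fold lower); no bar reaches the dashed line, and Prim1 (-0.85) and Pole2 (-0.84) come closest.

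Among the DNA polymerase genes, 6 of 7 were lower in Hi as deposited and in no scaling fewer, 5 of them by at least 0.25 (4 with quantile normalization), with a median difference of -0.48. Prim1, the catalytic subunit of primase that lays the RNA primer, had levels of 6.45 (Ctrl), 8.91 (Med) and 8.06 (Hi), a level 1.80-fold lower in Hi than in Med. Pole2, an accessory subunit of the leading-strand polymerase epsilon, was at 6.97, 9.34 and 8.51 in the same order, 1.79-fold lower in Hi. Its catalytic subunit Pole was at 7.26, 9.20 and 8.54. These 3 genes had Med highest, Hi next and Ctrl lowest.

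Pola2, a regulatory subunit of polymerase alpha, had levels of 7.04 (Ctrl), 9.47 (Med) and 8.99 (Hi). Prim2, the primase large subunit, had the lowest Ctrl level of all members, 5.71, and stood at 9.19 in Med and 8.88 in Hi. Pola1, the catalytic subunit of polymerase alpha, differed by -0.19 between Hi and Med. Pold1, the catalytic subunit of the lagging-strand polymerase delta, had identical deposited values, 8.70 in both Med and Hi. Among these 7 genes Prim1, Pole2 and Pole thus lay furthest apart between Hi and Med. The order did not follow the enzymes, since Pola2 (-0.48) lay further apart than Prim2 (-0.31).

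The sliding clamp and its loader came next. Pcna, the ring that holds polymerases on DNA, had levels of 7.27 (Ctrl), 11.66 (Med) and 11.22 (Hi), a difference of -0.44 between Hi and Med. Its 2 probe sets gave 11.66 each in Med and 11.22 each in Hi, but 7.14 and 7.41 in Ctrl. Rfc4 had levels of 9.09 (Ctrl), 10.30 (Med) and 9.65 (Hi), and Rfc5 had 7.46, 10.36 and 9.84. Both encode small subunits of the clamp loader, and each was lower in Hi by over 0.5. Of the other loader subunits, Rfc3 differed by -0.07, whereas the large subunit Rfc1 (8.90 in both Med and Hi) and Rfc2 (8.08 in both) were identical. The deposited differences within this 1 complex therefore ran from 0, for identical values, to -0.65.

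In the MCM helicase, 5 of 6 subunits were lower in Hi as deposited and in no scaling fewer, 2 of them by at least 0.25 (1 with quantile normalization). Mcm6 had levels of 7.82 (Ctrl), 10.83 (Med) and 10.26 (Hi), 1.48-fold lower in Hi than in Med. Mcm2 was at 9.29, 10.17 and 9.91. Mcm5, Mcm4 and Mcm3 differed between Hi and Med by -0.22, -0.16 and -0.11. Mcm7, the host gene of the related miR-106b~25 cluster, had levels of 8.27 (Ctrl) and 9.70 (Med and Hi alike). The helicase subunits are needed in equal number in the ring, and their deposited differences here ran from 0, for identical values, to -0.56.

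Of the licensing genes, Cdt1, which brings MCM to origins, had levels of 8.45 (Ctrl), 10.27 (Med) and 9.79 (Hi). Orc6, the smallest subunit of the origin recognition complex, was at 6.86, 9.40 and 9.11. Both were lower in Hi by at least 0.25 in the deposited values. Orc1, the largest subunit, lay just below the filter with levels of 7.03 (Ctrl), 7.25 (Med) and 7.03 (Hi). Cdc6, the loading ATPase, had levels of 7.48 (Ctrl) and 7.90 (Med and Hi alike), and Gmnn (geminin), the inhibitor of Cdt1, was below the filter with 6.88 (Ctrl) and 6.80 (Med and Hi alike). Cdc6 and the inhibitor Gmnn thus each had identical deposited values in Med and Hi.

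Of the 7 genes that switch the helicase on, 4 passed the filter, and none of these differed by 0.25 in any scaling. The other 3, which lay below the filter, differed by more. The GINS subunit Gins4 had levels of 7.61 (Ctrl), 9.98 (Med) and 9.96 (Hi), and Gins2 had 8.87, 8.79 and 8.79. Cdc45 had levels of 8.42 (Ctrl) and 8.59 (Med and Hi alike), and Mcm10, which helps to activate the loaded helicase, was at 8.05, 8.19 and 8.11. Below the filter, Gins3 had levels of 6.84 (Ctrl), 7.15 (Med) and 6.84 (Hi), and it was at least 0.25 lower in Hi than in Med in every scaling. Gins1 (7.06, 7.10 and 6.85) and the kinase Cdc7 (6.66, 6.96 and 6.72) both differed by -0.24, more than the members' median. The kinase Cdk2, which drives entry into S phase, was at 8.29, 8.41 and 8.21. Its partners had identical deposited values in Med and Hi, Ccne1 at 7.55 in every column and Ccne2, below the filter, with 6.38 (Ctrl) and 6.94 (Med and Hi alike).

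The nucleotide supply genes were not alike in the deposited values. Rrm1, the large subunit of ribonucleotide reductase, had levels of 7.59 (Ctrl), 10.91 (Med) and 10.55 (Hi). Rrm2, the small subunit that limits the enzyme in S phase, had levels of 9.38 (Ctrl), 10.04 (Med) and 9.38 (Hi), so that as deposited Hi held the Ctrl value and Med alone was higher. Over the scalings its difference from Ctrl ran from -0.42 to 0.96 in Med and from -0.96 to 0.29 in Hi. Thymidylate synthase (Tyms) had levels of 8.20 (Ctrl) and 8.78 (Med and Hi alike). Thymidine kinase (Tk1) was at 9.10 in all 3 columns, and each of its 2 probe sets (9.17 and 9.04) held 1 value throughout. Both reductase subunits were thus lower in Hi than in Med, whereas both thymidylate enzymes had identical deposited values there.

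The remaining members include Uhrf1, which guides the maintenance methylase to newly replicated DNA, with levels of 7.71 (Ctrl), 8.55 (Med) and 7.99 (Hi). The ligase Lig1, which seals Okazaki fragments, was at 8.35, 8.68 and 8.48. The flap nuclease Fen1 (7.17) and the single-strand binding subunit Rpa1 (8.88) held 1 value in every column, and Rpa2 was at 7.89, 7.89 and 7.88. Uhrf1 was the only one of these 5 to differ by 0.25 between Med and Hi.

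Values identical to the last deposited digit were common in this table. Ccne1, Fen1, Rpa1 and Tk1 were identical in all 3 columns, 4 of 37 members past the filter (10.8%), where the share over all genes past the filter was 10.5%. In Med and Hi, 12 of 37 members (32.4%) were identical, against 45.9% of all genes. Orc1, Gins3 and Rrm2 were identical in Ctrl and Hi but not in Med. How such identity arose was not tested, so a difference of 0 is not a measurement of equal mRNA.

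Members with high levels differed more than members with low levels, and the background moved with level too. In level bands set after the values were seen (the mean of Med and Hi), all 6 members at or above 10 were lower in Hi by at least 0.25, where 16.3% of the 1615 genes in that band were. Between 9 and 10 the count was 5 of 11 members, beside 16.0% of genes. Between 8 and 9 it was 4 of 16, beside 12.0%, and below 8 it was 0 of 4, beside 6.21%. After a loess fit of the difference on level, 15 of 37 members were still lower by at least 0.25, beside 11.7% of all genes. The median difference of the members was then -0.19.

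**Figure D3:**
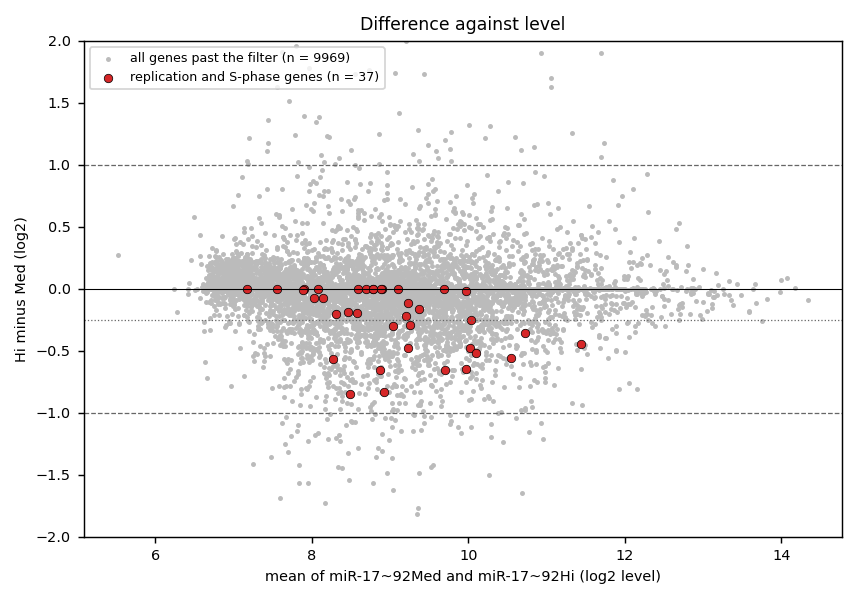
Difference between miR-17~92Hi and miR-17~92Med (log2, vertical axis) against the mean level of both columns (log2, horizontal axis) for the 9969 genes past the filter (grey) and the 37 replication genes among them (red); 23 genes beyond 2 in either direction lie outside the frame. Red points lie at or below 0 over the whole range as deposited (13 move above it, by at most 0.04, with quantile normalization), and those at a level of 10 or more all lie below the dotted line at -0.25.

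Whether the promoters of these genes share letters known from cell cycle control was asked next. RefSeq windows of 300 bases (250 before the gene's start and 50 after, GRCm38.p6) matched 34 of the 43 members by symbol, with 40 windows in all. The letters GCGNGAA, the core of sites bound by E2F factors, read on both strands, occurred in windows of 21 of the 34 members (61.8%). They occurred in 10.2% of the 27025 genes with a window and in 18.4% of the 8052 with a window that passed the expression filter. CCAAT, the box bound by NF-Y, on both strands, occurred in 21 of 34 members (61.8%), in 41.1% of all genes and in 42.4% of those past the filter. TTTGAA, the CHR element of mitotic genes, on both strands, occurred in 5 of 34 members (14.7%), in 20.2% of all genes and in 13.4% of those past the filter. Listed mitotic genes with a window held E2F cores in 2 of 22 (9.09%), CCAAT in 17 of 22 (77.3%) and TTTGAA in 16 of 22 (72.7%). Each pattern was searched alone, so matches of different patterns may overlap, and a match describes letters and not a bound site.

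**Figure D4:**
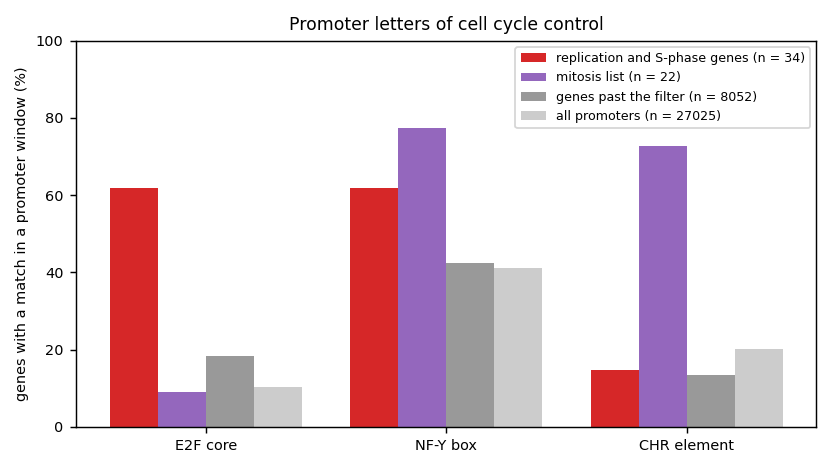
Share of genes (%) with at least 1 match in a promoter window for the E2F core, the NF-Y box and the CHR element, in replication and S-phase genes (red, n = 34), listed mitotic genes (purple, n = 22), genes past the expression filter (dark grey, n = 8052) and all genes with a window (light grey, n = 27025). The E2F bar is tallest for replication genes (61.8%) and the CHR bar for mitotic genes (72.7%).

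Members with and without the E2F core occurred at every size of difference between Hi and Med. The core was present in 8 of 14 members with a window that were at least 0.25 lower in Hi, in 9 of 10 that were lower by less, and in 4 of 10 that were identical. The windows of 4 members are printed to show where the core lies in members that do and do not differ. Prim1 (chr10:128014965-128015264, plus strand) had the largest difference and 1 core, at -15, counted from 0 at the gene's first base with negative numbers before it. Mcm6 (chr1:128359656-128359955, minus strand), with a difference of -0.56, had 3 cores, at -106, -43 and 24. Uhrf1 (chr17:56303087-56303386, plus strand), with a difference of -0.57, had 2 adjoining cores, at -55 and -48. Mcm7 (chr5:138171834-138172133, minus strand), identical in Med and Hi, had 2 cores, at -165 and 17. Uhrf1 and Mcm7 each had another window, not printed, with a core at -184 and at -113, counted from that window's own start. Each printed window is written 5′ to 3′ on the gene's strand with E2F cores, of either strand, in capitals.
Prim1: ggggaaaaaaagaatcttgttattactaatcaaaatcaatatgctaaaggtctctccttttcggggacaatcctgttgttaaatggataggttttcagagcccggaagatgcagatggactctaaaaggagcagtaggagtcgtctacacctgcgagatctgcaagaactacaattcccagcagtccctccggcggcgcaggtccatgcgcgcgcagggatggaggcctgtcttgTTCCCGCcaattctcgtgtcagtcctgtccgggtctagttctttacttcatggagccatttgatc
Mcm6: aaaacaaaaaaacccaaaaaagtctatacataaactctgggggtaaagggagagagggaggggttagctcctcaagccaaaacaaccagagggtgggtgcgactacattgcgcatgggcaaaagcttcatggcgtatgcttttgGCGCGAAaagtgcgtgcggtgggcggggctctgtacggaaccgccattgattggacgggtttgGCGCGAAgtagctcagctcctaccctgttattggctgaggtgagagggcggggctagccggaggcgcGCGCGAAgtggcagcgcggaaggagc
Uhrf1: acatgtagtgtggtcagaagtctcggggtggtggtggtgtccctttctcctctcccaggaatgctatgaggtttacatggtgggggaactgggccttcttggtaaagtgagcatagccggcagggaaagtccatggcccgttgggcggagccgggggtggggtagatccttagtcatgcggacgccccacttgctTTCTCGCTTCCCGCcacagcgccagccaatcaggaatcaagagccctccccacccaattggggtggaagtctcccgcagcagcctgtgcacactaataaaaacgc
Mcm7: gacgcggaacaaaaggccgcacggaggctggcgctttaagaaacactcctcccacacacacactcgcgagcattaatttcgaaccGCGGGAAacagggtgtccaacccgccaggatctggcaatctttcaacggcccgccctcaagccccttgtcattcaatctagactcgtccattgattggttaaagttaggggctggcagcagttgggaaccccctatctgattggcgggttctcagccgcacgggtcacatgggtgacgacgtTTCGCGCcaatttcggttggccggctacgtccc
Pole2, with a difference of -0.84, had none of the 3 patterns in its window, and the windows of Rrm2 and Pcna held CCAAT without the E2F core. No match says only that these letters are not in the window, and no other form of the E2F site was searched.

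Against Ctrl, the genes with the largest differences were a clamp, a reductase, a helicase, a clamp-loader and a primase subunit, each higher in both miR-17~92 columns in every scaling. Pcna lay furthest from Ctrl, higher by 4.39 in Med and 3.95 in Hi. Rrm1 was higher by 3.31 and 2.96, Mcm6 by 3.00 and 2.44, and Rfc5 by 2.90 and 2.38. Prim2 was not above the receptor genes' 95th percentile in Ctrl, so its differences of 3.48 and 3.18 have only a bound: it was higher by at least 2.32 in Med and 2.02 in Hi, counted from that percentile (6.87). Orc6 (at least 2.53 and 2.25), Prim1 (2.04 and 1.19) and Rfc1 (2.03 in both) were likewise within the receptor range in Ctrl. In Med 16 of 37 members (43.2%) were at least 2-fold higher than in Ctrl, where 34.9% of all genes were, and in Hi 15 of 37 (40.5%), where 33.5% were. Orc6, Pola2, Prim1, Prim2, Pole2 and Rfc1 were under the filter level in Ctrl and passed it through Med and Hi, so the filter itself favoured a difference from Ctrl. With no filter the 2-fold higher members were 16 of 43 (37.2%) beside 18.3% of all genes in Med, and 15 of 43 (34.9%) beside 17.5% in Hi. That background includes genes within the receptor range. A filter on receptor background, passed through either column compared, kept all 43 members. The shares of all genes were then 26.5% in Med and 25.3% in Hi. Past the expression filter, no member was 2-fold lower in Med or Hi, where 8.7% and 8.4% of all genes were. As deposited, the member of all 43 farthest below Ctrl in Med was Gmnn (-0.08), followed by Gins2 (-0.08). In Hi it was Gins1 (-0.21), followed by Cdk2 (-0.09), Gmnn (-0.08), Gins2 (-0.08) and Rpa2 (-0.01). This order changed with scaling. With quantile normalization Tk1 (-0.90) was farthest below Ctrl in Med, and Gmnn was higher by 0.20. Both comparisons use the same Ctrl column, so they do not repeat each other.

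The comparisons with Ctrl depended on scaling more than the one between Hi and Med. In Med 31 of 37 members were higher than Ctrl and 1 lower as deposited, but 23 were higher and 14 lower with quantile normalization, 27 and 10 with loess, and all 37 were higher with centred columns. All genes split into 62.7% higher and 25.7% lower as deposited, 48.4% and 51.6% with quantile normalization, 57.9% and 42.1% with loess and 80.7% and 19.3% with centred columns. In Hi 29 were higher and 3 lower as deposited, 22 and 15 with quantile normalization, 24 and 13 with loess, and all 37 were higher with centred columns. All genes there split into 62.5% and 25.3%, 48.7% and 51.3%, 58.1% and 41.9%, and 80.8% and 19.2% in the same order. The median of all probe sets was 0.30 lower in Med and 0.29 lower in Hi than in Ctrl, as the column medians of 6.95, 6.65 and 6.66 show. The 2-fold calls of 13 members held in every scaling in both comparisons: Orc6, Mcm4, Mcm6, Gins4, Pola2, Prim1, Prim2, Pole, Pole2, Pcna, Rfc1, Rfc5 and Rrm1. Those of Cdt1, Mcm7 and Rfc4 did not. The share of all genes whose calls held in every scaling was not counted, so the 13 have no background beside them. Among the 13, Orc6, Pola2, Prim1, Prim2, Pole2 and Rfc1 passed the filter only through Med and Hi. The low mitochondrial COX2 level in Ctrl stood beside all of these differences, and its part in them was not tested.

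Other genes of the pathway, from lists that hold no member, were largely lower in Hi than in Med too, apart from those of nucleotide synthesis. Of 21 further replisome and origin genes past the filter, 17 were lower in Hi, 4 identical and none higher as deposited (16 lower and 5 higher by at most 0.04 with quantile normalization), with 8 at least 0.25 lower and a median of -0.16. Tipin, which protects the fork with Timeless, had levels of 5.68 (Ctrl), 8.99 (Med) and 7.89 (Hi), the only one of them 2-fold lower in Hi. Topbp1, a scaffold of origin firing and of the ATR checkpoint, was at 7.51, 9.92 and 8.93. Dbf4, the activating partner of Cdc7, was at 5.96, 8.05 and 7.40, and the delta subunit Pold4 at 8.21, 9.88 and 9.34. Each of these 4 differed by more than the members' median of -0.19.

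Replication-coupled chromatin genes had 5 of 8 lower in Hi, 3 identical and none higher as deposited (5 and 3 higher by at most 0.04 with quantile normalization), with a median of -0.33. The maintenance methylase Dnmt1, the partner of Uhrf1, had levels of 8.01 (Ctrl), 10.14 (Med) and 9.39 (Hi), and the remodeller Hells had 6.18, 8.38 and 7.66. The histone chaperone Asf1b (8.08, 9.72 and 9.14) and the chromatin assembly subunit Chaf1a (6.89, 7.73 and 7.29) were also lower in Hi than in Med. Of 16 checkpoint and fork repair genes, 13 were lower as deposited and in no scaling fewer, with 9 at least 0.25 lower and a median of -0.35. Among them were the Fanconi gene Fancd2 (6.78, 8.62 and 7.76), cyclin A2 (Ccna2, 7.18, 10.69 and 9.93), Usp1 (7.44, 9.88 and 9.35) and the mismatch repair gene Msh6 (7.37, 8.20 and 7.73). Further nucleotide synthesis genes did not lean this way, with 4 of 13 lower, 7 identical and 2 higher and a median of 0.00 (4 lower and 9 higher with quantile normalization, 11 lower with centred columns). The dNTP hydrolase Samhd1 was at 7.13, 11.14 and 10.09, the p53-induced reductase subunit Rrm2b at 8.63, 7.17 and 7.62, Shmt1 at 8.17, 9.03 and 8.65 and the thymidylate kinase Dtymk at 7.82, 9.93 and 10.20.

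The listed mitotic genes had 19 of 22 lower in Hi as deposited and in no scaling fewer, with 13 at least 0.25 lower (59.1%, beside 40.5% of the replication genes) and a median of -0.40. Of these 22, 2 were at least 2-fold lower, as was Tipin of the further replisome genes, and none of the 37 replication members was. With 1 column a group, whether mitotic and replication genes differ in this was not tested.

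**Figure D5:**
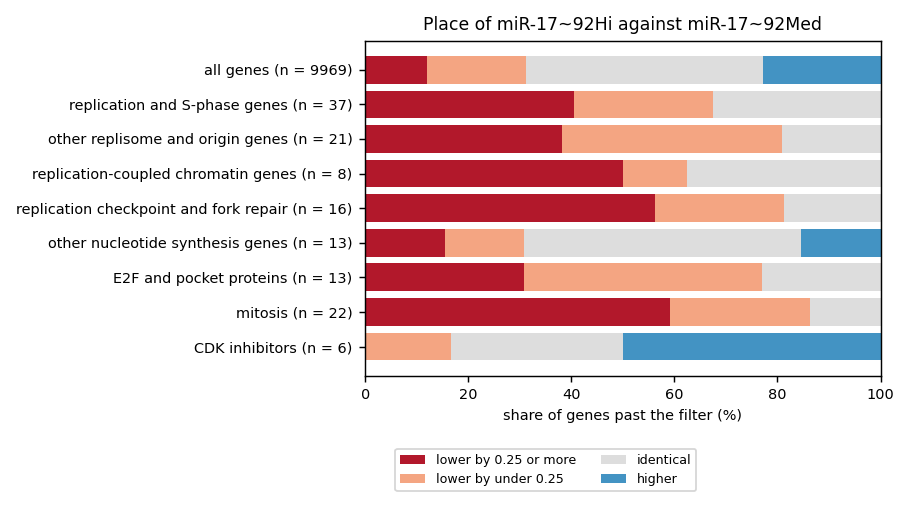
Share of the genes past the filter in each list (%, horizontal axis) that were lower in miR-17~92Hi than in miR-17~92Med by 0.25 or more (dark red), lower by less (orange), identical (grey) or higher (blue), in the deposited values. Blue is absent from the replication, replisome, chromatin, checkpoint, E2F and mitosis lists and takes 22.8% of all genes; with quantile normalization 13 of the 37 replication genes turn to the higher side by at most 0.04, as do some genes of the other lists.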

How the data were processed

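Log2 expression values deposited by the authors were analysed, 1 column a group over 35556 probe sets. The submitters' processing notes name the tools GCRMA and Affymetrix Expression Console, without version, role or order. The log2 scale was taken from the range of 2.13 to 14.8, and the genome build and pooling of subclones are not given in the sources used here. Labelling started from 100 ng of RNA, per the labels' protocols. The number of arrays limits the precision, and no column was left unmapped (0).

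Probe sets were named from GEO's platform annotation, with symbols updated by gene number to RefSeq (GRCm38.p6, 21698 of 21789 single-gene probe sets matched). Probe sets of several genes (1621) or none (12146) were left out, and probe sets of 1 gene were averaged. The filter, the 2-fold and 0.25 thresholds and the alternatives (centring, quantile normalization, loess with a span of 0.3, 3 other filters, the highest probe set) were applied in Python 3.11.15 with pandas 2.3.3 and statsmodels 0.14.6, checked on simulated data. All 43 members could be named, with full values for those at least 0.25 apart between Hi and Med, the 5 farthest from Ctrl and those below the filter; of each other list, up to 4 genes at least 0.25 apart were named, and up to 2 where none was. The members, lists and thresholds were chosen with earlier results of these data known.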

Additional observations from a re-analysis of the deposited data

How the results depend on the processing

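Between Hi and Med, the counts of members 2-fold apart or at least 0.25 apart and their median difference stayed within 1.5 times, or within 0.1 for the median, under all 7 alternatives (12 to 16 members at least 0.25 lower, medians from -0.20 to -0.14). The share of all genes at least 0.25 lower ran from 7.11% (no filter) to 12.6% (filter on the 2 columns compared). Against Ctrl, the 2-fold counts stayed within 1.5 times too (13 to 19 members in Med, 13 to 15 in Hi), but the share of all genes moved as well. In Med 51.4% of members were 2-fold higher beside 42.1% of all genes with centring, and 35.1% beside 25.6% with quantile normalization. In Hi the shares were 40.5% beside 40.6% with centring, and 35.1% beside 25.2% with quantile normalization. The counts at 0.25 and the medians against Ctrl did not stay within these limits. With quantile normalization, members at least 0.25 lower than Ctrl numbered 10 in Med and 12 in Hi, and with loess 3 and 6, against 0 in each as deposited. These are 27.0% and 32.4% of the members beside 42.7% and 42.0% of all genes, and 8.11% and 16.2% beside 32.5% and 31.7%. Members at least 0.25 higher in Med numbered 28 as deposited (75.7%, beside 54.9% of all genes) and 18 with quantile normalization, where the share of all genes is not given here. The members' median difference from Ctrl in Med was 0.80 as deposited, 1.09 with centred columns, 0.24 with quantile normalization and 0.48 with loess. The median of all genes past the filter was 0.42, 0.72, -0.05 and 0.20 in the same order. The members' median was 0.59 both without a filter and with a filter on receptor background, beside -0.20 and 0.00 for all genes. In Hi the members' median was 0.58 as deposited, 0.87 with centred columns, 0.16 with quantile normalization and 0.41 with loess. That of all genes was 0.39, 0.67, -0.04 and 0.21. The cause of these shifts was not tested. No replicate could be left out, since each group has 1 column. Levels near the receptor range limit what Ctrl can show: 36 of 43 members exceeded its 95th percentile there.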

Other observations

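Transcription factors that act on these genes were listed apart from them. Of 13 genes for E2F factors, their DP partners and pocket proteins, 10 were lower in Hi than in Med, 3 identical and none higher as deposited (8 lower and 5 higher, by at most 0.04, with quantile normalization), with a median of -0.11. E2f8, a repressor of E2F targets, had levels of 7.51 (Ctrl) and 9.57 (Med) and differed by -1.57 between Hi and Med, the only one of the 13 at least 2-fold lower in Hi. The pocket protein genes Rbl1 (6.84, 8.75 and 7.95) and Rb1 (7.21, 9.03 and 8.40) differed between Hi and Med by -0.80 and -0.64, and the repressor E2f5 (6.51 in Ctrl, 8.31 in Med) by -0.30. The activator E2f1 was at 8.60, 9.03 and 8.91.

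Genes for CDK inhibitors did not differ by 0.25 between Med and Hi. Of 6 past the filter, 1 was lower, 2 were identical and 3 were higher as deposited (1 and 5 with quantile normalization, 3 and 3 with centred columns). The largest differences were those of Cdkn1b (p27), -0.21, and Cdkn2b (p15), 0.12. Cdkn1a (p21) was not analysed here.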
